A study of Mus musculus with 12 samples.

Results

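The genes described here are 10 immediate early genes, Nr4a1, Nr4a2, Nr4a3, Egr1, Egr2, Fos, Fosb, Junb, Dusp2 and Ier3, among 19938 genes measured on 12 arrays. Each was chosen by its symbol and matched to the 1 probe set that the platform annotation gives to that symbol alone, so all 10 were measured. The arrays hold RNA of bone marrow derived mast cells, which are grown from mouse marrow with growth factors that drive marrow cells towards the mast cell lineage. The labels give 4 groups of 3 arrays each: ACKR2-/- (D6-/-) cells at 10 weeks, wild type cells at 10 weeks, ACKR2-/- cells at 2 weeks and wild type cells at 2 weeks of culture. All come from female mice of the C57BL/6 strain, 4 to 6 weeks old, and all were kept in medium holding stem cell factor at 12.5 ng/ml and interleukin 3 at 10 ng/ml. No other stimulus is named for any group. ACKR2 is an atypical chemokine receptor that scavenges inflammatory CC chemokines. Cultures looked homogeneous after 4 weeks, and for some experiments 2-week cells were purified through CD117 (Kit), but the labels do not say whether these arrays hold such cells. The labels describe the arrays of a group as biological replicates without naming animals or cultures, so p-values measure the spread between arrays. Values are log2 signals, on which a difference of 1 is a doubling, and a signal of 1 probe set is not set against that of another.

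Immediate early genes are transcribed within minutes of a stimulus, without new protein synthesis, mainly through MAP kinases, the serum response factor SRF and its partners, and the cyclic AMP response factor CREB. In mast cells, cross-linking of the IgE receptor and stem cell factor acting on Kit are among the signals that induce them. Fos, Fosb and Junb encode subunits of the transcription factor AP-1, Egr1 and Egr2 encode zinc finger transcription factors, and the Nr4a genes encode orphan nuclear receptors. Dusp2 encodes a nuclear phosphatase that turns off MAP kinases, and Ier3 encodes a protein that affects survival and MAP kinase signalling.

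The promoters of members with large and with small differences at 10 weeks are shown to give the letters of their response elements. RefSeq windows of assembly GRCm38.p6 ran from 250 bases before to 50 bases after a start site. They were read for 9 of the members, all but Egr1, and are written in the gene's own direction. Capitals mark the CRE core TGACG on either strand and the CArG box, the element bound by SRF. For Egr2, which has 5 listed start sites, 1 of the windows with both elements is given.
Fos, chr12:85473640-85473939, plus strand: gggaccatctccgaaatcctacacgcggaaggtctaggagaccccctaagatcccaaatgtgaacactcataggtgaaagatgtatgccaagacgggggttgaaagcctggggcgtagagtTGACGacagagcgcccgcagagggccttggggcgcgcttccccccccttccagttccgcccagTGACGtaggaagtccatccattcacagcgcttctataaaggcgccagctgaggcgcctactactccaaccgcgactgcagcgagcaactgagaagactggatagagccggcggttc
Nr4a1, chr15:101266596-101266895, plus strand: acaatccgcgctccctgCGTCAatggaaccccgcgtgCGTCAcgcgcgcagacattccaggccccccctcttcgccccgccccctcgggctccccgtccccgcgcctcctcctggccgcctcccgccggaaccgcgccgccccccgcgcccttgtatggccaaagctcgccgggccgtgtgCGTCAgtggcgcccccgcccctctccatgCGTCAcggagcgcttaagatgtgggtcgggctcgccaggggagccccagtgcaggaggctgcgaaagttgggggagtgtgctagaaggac
Egr2, chr10:67537619-67537918, plus strand: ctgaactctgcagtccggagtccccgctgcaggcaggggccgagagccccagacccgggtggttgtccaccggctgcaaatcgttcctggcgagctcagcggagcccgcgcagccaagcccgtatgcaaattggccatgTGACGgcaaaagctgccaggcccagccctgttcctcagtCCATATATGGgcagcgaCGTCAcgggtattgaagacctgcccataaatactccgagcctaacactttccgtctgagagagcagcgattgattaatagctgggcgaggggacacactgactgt
Nr4a2, chr2:57123954-57124253, minus strand: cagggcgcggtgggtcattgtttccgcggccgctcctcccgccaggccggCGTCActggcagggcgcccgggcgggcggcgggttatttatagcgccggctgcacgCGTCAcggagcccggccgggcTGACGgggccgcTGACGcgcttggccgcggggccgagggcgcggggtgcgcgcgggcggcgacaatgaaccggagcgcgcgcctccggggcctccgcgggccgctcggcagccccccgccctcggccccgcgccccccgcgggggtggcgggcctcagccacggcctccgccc
Ier3, chr17:35821463-35821762, plus strand: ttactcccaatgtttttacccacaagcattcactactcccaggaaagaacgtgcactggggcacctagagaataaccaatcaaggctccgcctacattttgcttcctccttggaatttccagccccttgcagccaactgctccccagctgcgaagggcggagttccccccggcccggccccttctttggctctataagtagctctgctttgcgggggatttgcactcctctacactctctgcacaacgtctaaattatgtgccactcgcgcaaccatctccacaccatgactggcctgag
The CRE core was found in windows of 8 of the 9 members, against 20.8% of all 32851 windows of this length, and Ier3 was the member without it. Nr4a1, Nr4a2 and Nr4a3 each held 4 copies. In Fos the nearest copy begins 66 bases before the start site. A CArG box was found in 1 of the 9 members read, Egr2, against 1.63% of all windows. It begins 72 bases before the start site shown, and another Egr2 window holds a different CArG box. Egr1 was not searched, and elements more than 250 bases before a start site lie outside the windows. The full CRE TGACGTCA, the AP-1 site TGANTCA, the NBRE AAAGGTCA bound by NR4A receptors and the EGR site GCGTGGGCG were searched on both strands and found in 0 of the 9, against 1.79%, 7.81%, 1.51% and 0.612% of all windows. The full CRE contains the CRE core, and the several windows of Egr2 give it more chances of a match than a member with 1 window. These matches describe letters in a window and do not show binding.

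Several arrays went against their labels or their groups. On the 3 ACKR2-/- arrays of 2 weeks and on wild type 2-week array 3, Fcer1a, which encodes the IgE-binding chain of the mast cell receptor, read at most 5.47, against at least 13.74 on the other 8 arrays, and Xist read at most 6.23, against at least 13, although the labels give female mice throughout. The mast cell markers averaged 7.07 to 7.17 on these 4 arrays, and the T and NK cell markers 8.77 to 11.51, against at most 7.27 elsewhere. Across genes, the closest partner of wild type 2-week array 3 was ACKR2-/- 2-week array 2 (Pearson r = 0.997). At 10 weeks, ACKR2-/- array 1 correlated at 0.989 with wild type array 3, and at 0.974 with array 2 of its own group, whereas arrays 2 and 3 of that group correlated at 0.994 with each other. The targeted gene does not settle the genotypes, because Ackr2 read 8.34, 8.16 and 8.25 on the ACKR2-/- arrays and 7.88, 8.26 and 8.35 on the wild type arrays at 10 weeks, and whether its probe set lies in the deleted part is not given in the sources used here. Groups below are therefore those of the labels.

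At 10 weeks the AP-1 genes Fos, Fosb and Junb were much lower on 2 of the 3 ACKR2-/- arrays, Nr4a1 and Egr2 were also low on these, and Nr4a2 and Ier3 stayed within 0.5 log2 units of the wild type mean. ACKR2-/- array 1 had wild type levels of the AP-1 genes. No member passed the threshold when all 6 arrays were tested.

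Fos read 12.23, 8.01 and 8.58 on ACKR2-/- arrays 1 to 3, against 11.49, 11.63 and 12.43 on the wild type arrays. ACKR2-/- array 1 thus lay inside the wild type range, and arrays 2 and 3 lay 14.3-fold and 9.65-fold below the wild type mean. The fitted difference was -2.24 ± 1.00 (SE) with a limma adjusted p of 0.487. Fosb, its close relative, read 11.98, 7.78 and 8.06 on the ACKR2-/- arrays, against 11.56, 11.25 and 11.83 on the wild type arrays. Here array 1 was the highest of the 6, and arrays 2 and 3 were 13.5-fold and 11.2-fold below the wild type mean. The fitted difference was -2.27 ± 1.01 with a limma adjusted p of 0.487. Junb, whose product pairs with FOS proteins, read 12.25, 9.74 and 10.25 on the ACKR2-/- arrays, against 11.71, 11.91 and 12.34 on the wild type arrays. Arrays 2 and 3 were again the low ones, with a log2 change of -1.24 ± 0.59 and a limma adjusted p of 0.516.

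**Figure D1:**
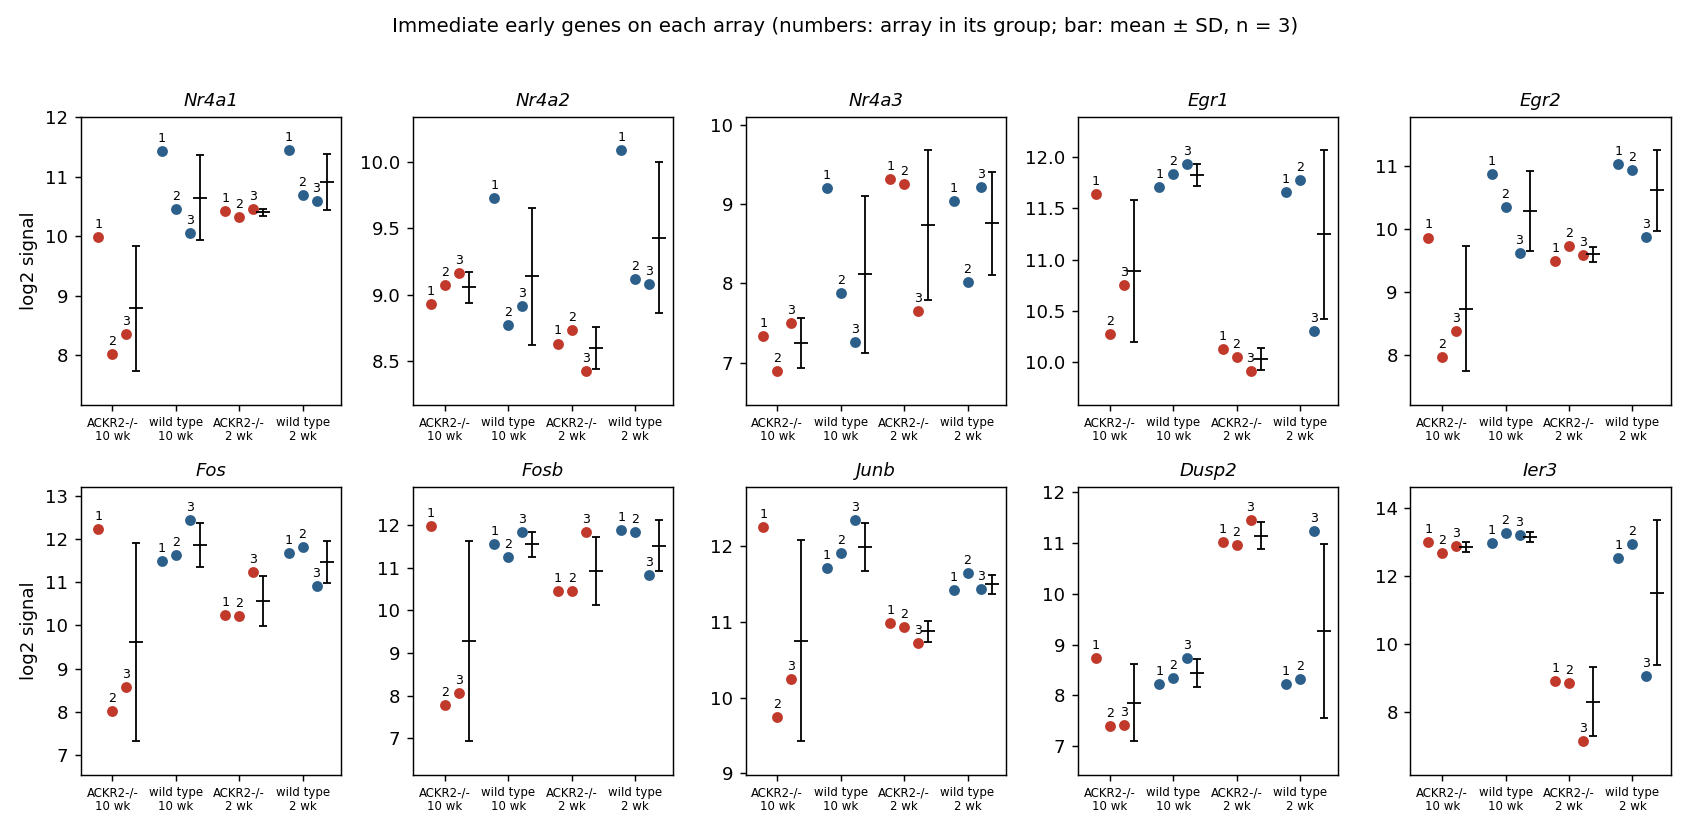
Log2 signal (vertical axes, each with its own range) of the 10 genes on every array, with the 4 labelled groups along the horizontal axes, the number of each array beside its point and the mean ± SD of 3 arrays as a bar. Fos, Fosb and Junb on ACKR2-/- 10-week arrays 2 and 3 lie below all other 10-week arrays, while array 1 lies with the wild type.

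Among the nuclear receptor genes, Nr4a1 read 9.99, 8.01 and 8.35 on the ACKR2-/- arrays, against 11.44, 10.45 and 10.06 on the wild type arrays. All 3 ACKR2-/- arrays were below the wild type ones, array 1 by a small margin, and the difference was -1.87 ± 0.55 with a limma adjusted p of 0.394. Nr4a3 read 7.34, 6.89 and 7.5 on the ACKR2-/- arrays, against 9.20, 7.88 and 7.26 on the wild type arrays, so that the groups overlapped and wild type array 1 was the high one. Its difference was -0.87 ± 0.45 (limma adjusted p 0.553), and -0.33 without wild type array 1. Nr4a2 read 8.93, 9.07 and 9.16 on the ACKR2-/- arrays, against 9.73, 8.77 and 8.91 on the wild type arrays. Its difference of -0.09 had a 95% confidence interval from -0.66 to 0.49 and changed sign to 0.21 without wild type array 1. The 3 receptor genes thus did not share 1 pattern.

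Egr1 read 11.64, 10.27 and 10.75 on the ACKR2-/- arrays, against 11.71, 11.84 and 11.93 on the wild type arrays. The groups did not overlap, the wild type arrays were close together, and the difference was -0.94 ± 0.32 with a limma adjusted p of 0.404. Egr2 read 9.87, 7.98 and 8.38 on the ACKR2-/- arrays, against 10.88, 10.36 and 9.62 on the wild type arrays. ACKR2-/- array 1 lay between wild type arrays 3 and 2, and the difference was -1.54 ± 0.51 with a limma adjusted p of 0.404. Of the remaining members, the MAP kinase phosphatase gene Dusp2 read 8.74, 7.41 and 7.43 on the ACKR2-/- arrays, against 8.23, 8.35 and 8.74 on the wild type arrays. Arrays 2 and 3 were the low ones here too, with a smaller difference, -0.58 ± 0.36 (limma adjusted p 0.637). Ier3 read 12.99, 12.68 and 12.88 on the ACKR2-/- arrays, against 12.97, 13.25 and 13.20 on the wild type arrays, a difference of -0.29 whose 95% confidence interval ran from -0.62 to 0.03.

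With all 6 arrays, 0 of 10 members passed a limma adjusted p of 0.05 at 10 weeks, as did 0.00% of all genes, while 3 members (Nr4a1, Egr1 and Egr2) and 2102 genes (10.5%) had an unadjusted p under 0.05. All 10 fitted differences were below 0, against 48.4% of all genes, with a median of -1.09 over the members and 0.01 over all genes. The members were chosen with earlier results of these data known, so these counts are a description. Groups did not overlap for 2 members, Nr4a1 and Egr1, both lower in ACKR2-/- cells, which 5.98% of all genes also were. For each of these 2 an exact permutation test over the 6 arrays gave a two-sided p of 0.1, the smallest that 3 against 3 arrays allow.

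The fitted differences depended on single arrays. Without ACKR2-/- array 2, Fos differed by -1.44, Junb by -0.74 and Dusp2 by -0.35, and without array 3 Dusp2 differed by -0.36, with 0 genes called in either fit. Arrays 2 and 3 both lay over 1 log2 unit below the lowest wild type array for 5 of 10 members (Fos, Fosb, Junb, Nr4a1 and Egr2), against 1.36% of all genes, whereas array 1 did so for 0 of 10 members, against 0.0301% of all genes. Without array 1, limma called 7 of 10 members lower, against 2.04% of all genes. Fosb then differed by -3.62 ± 0.21 (limma adjusted p 0.000504), Fos by -3.56 ± 0.31 (0.0023), Nr4a1 by -2.47 ± 0.38 (0.0196), Egr2 by -2.10 ± 0.35 (0.0258), Junb by -1.99 ± 0.24 (0.00757), Egr1 by -1.32 ± 0.19 (0.0147) and Dusp2 by -1.02 ± 0.19 (0.0395). The other members, Nr4a3 at -0.92 ± 0.52, Ier3 at -0.36 ± 0.16 and Nr4a2 at -0.02 ± 0.28, did not pass. This fit leaves out the ACKR2-/- array that lay nearest to the wild type in most members and so favours calls. It compares 2 arrays that correlate closely with each other against 3.

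**Figure D2:**
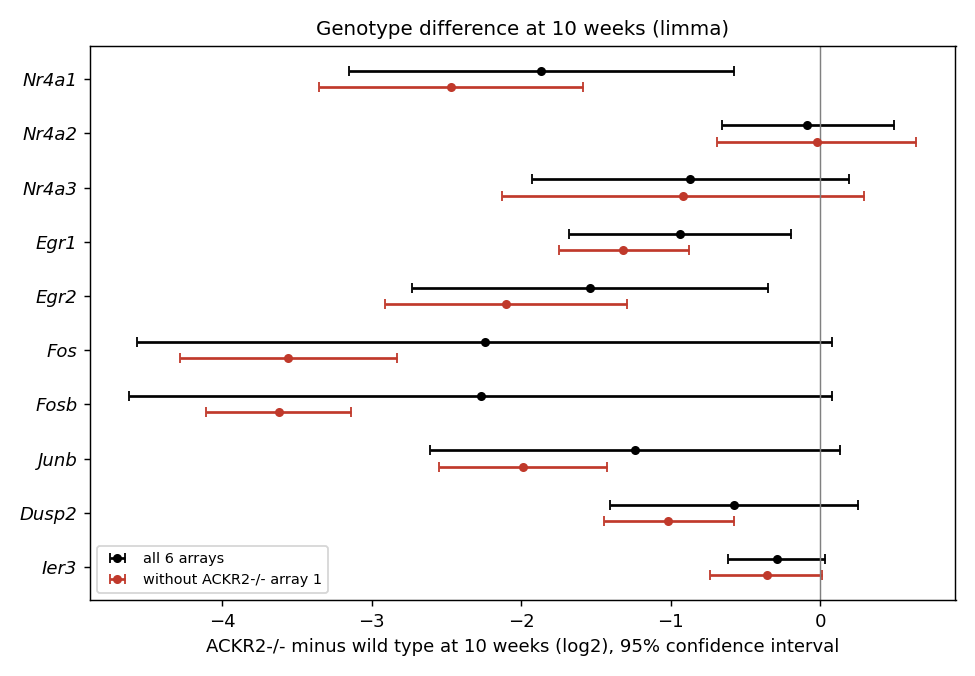
Fitted log2 difference, ACKR2-/- minus wild type at 10 weeks (horizontal axis), with limma 95% confidence intervals for each gene (vertical axis), from all 6 arrays (black) and without ACKR2-/- array 1 (red). Intervals of Fos and Fosb narrow and move left of 0 without that array, while those of Nr4a2 lie across 0 in both fits.

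Most other genes of the same class also had differences below 0. Of 23 other immediate early genes, 20 were below 0 with a median of -0.68 and 0 passed with all 6 arrays. Klf2, a zinc finger factor of quiescent leukocytes, differed by -0.98 ± 0.22, Trib1, a pseudokinase, by -0.74 ± 0.19, and Plk2, a polo-like kinase, by -1.60 ± 0.40, each with a limma adjusted p of 0.38. Without ACKR2-/- array 1, limma called 7 of the 23 lower (Ier5, Klf4, Btg2, Zfp36, Plk2, Rgs1 and Rgs2), against 2.04% of all genes. As stated above, that fit favours calls. Btg2, an antiproliferative gene, chosen after its values were seen, read 12.45, 8.70 and 9.95 on the ACKR2-/- arrays, against 11.83, 12.36 and 12.61 on the wild type arrays. Of 12 other AP-1 and bZIP factors, 11 were below 0 with a median of -0.30. Atf3, a stress-induced factor, differed by -1.61 ± 0.41, Maff by -0.85 ± 0.21 and Batf3 by -0.62 ± 0.15. Without array 1 limma called 2 of the 12 lower, Jun and Atf3, against the same 2.04%. Among the other EGR factors and NAB corepressors, Egr3 had the lowest p at -0.73 ± 0.31. Of 12 other MAP kinase phosphatases and feedback inhibitors, 9 were below 0 with a median of -0.26, and Dusp10 differed by -1.01 ± 0.27. Without array 1 limma called 1 of these 12 lower, Dusp1, again against 2.04% of all genes.

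**Figure D3:**
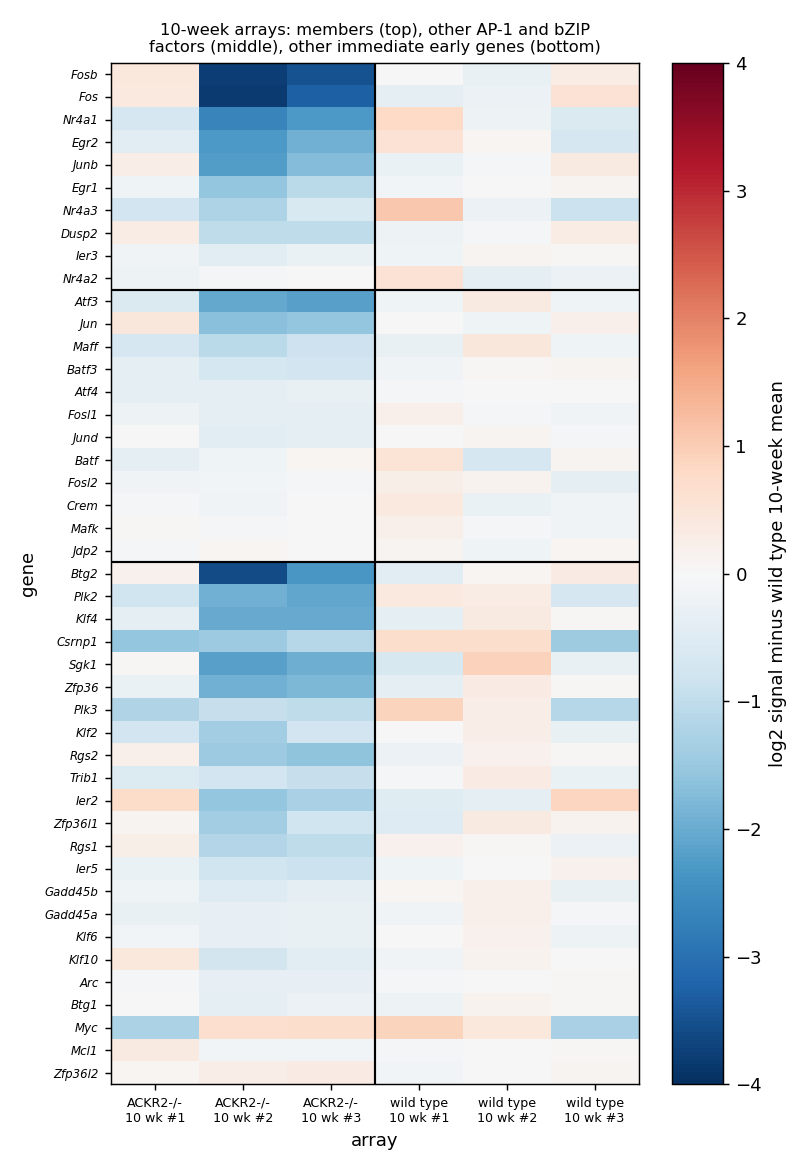
Log2 signal minus the wild type 10-week mean (colour, blue lower and red higher) for the 10 members, 12 other AP-1 and bZIP factors and 23 other immediate early genes (rows) on the 6 arrays of 10 weeks (columns). The blue rows of ACKR2-/- arrays 2 and 3 include Fos, Fosb and Btg2, and array 1 lacks them.

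Lists of genes that act upstream of the members had medians slightly above that of all genes. The 14 measured genes of the MAP kinase cascade had a median of 0.03, the 13 SRF, TCF and CREB regulators 0.16, the 8 calcineurin and NFAT genes 0.19 and the 15 genes of proximal IgE receptor signalling 0.15, against 0.01 over all genes. None of these passed with all 6 arrays. Some were higher on all ACKR2-/- arrays, against 8.61% of all genes. These were 6 of the 15 IgE receptor signalling genes, 4 of the 14 cascade genes, 2 of the 13 regulators and 1 of the 8 calcineurin and NFAT genes. Lower on all ACKR2-/- arrays were 1 cascade gene and 1 regulator, against 5.98% of all genes. A limma unadjusted p under 0.05 was reached by 1, 4, 2 and 1 genes of these lists, in the order of the higher counts, against 10.5% of all genes. Fyn, a SRC family kinase gene, differed by -0.60. The largest differences above 0 among named genes were 0.73 ± 0.22 for Sos1, a RAS exchange factor, and 0.73 ± 0.21 for Crtc1, a CREB coactivator. Without ACKR2-/- array 1, limma called Crtc1 higher and no other gene of these 4 lists, against 100 of all 19938 genes called higher. Srf itself differed by -0.30 ± 0.13. Of 20 inducible cytokine and chemokine genes, 16 were below 0 with a median of -0.29. Osm, which encodes oncostatin M, differed by -1.29 ± 0.24, Cxcl2, a neutrophil chemoattractant, by -2.13 ± 0.49 and Ptgs2, the inducible cyclooxygenase, by -1.72 ± 0.51, all with limma adjusted p of at least 0.38. Of 13 NF-kB subunits and feedback genes, 9 were below 0 with a median of -0.16. Heat shock and handling stress genes, 10 measured, had a median of 0.00. They averaged 10.74, 10.81 and 10.88 on the ACKR2-/- arrays, against 11, 10.81 and 10.84 on the wild type arrays. Of the 10, 3 were lower on all ACKR2-/- arrays, against 5.98% of all genes. Hmox1 differed by -0.71 ± 0.21, Hspa1a by -0.48 ± 0.18 and Dnaja1 by 0.40 ± 0.18, with limma adjusted p of at least 0.389.

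Markers of some other cell types moved with the members. Lists not described below had medians of -0.92 (eosinophil), -0.16 (stromal), -0.12 (T and NK cell), -0.09 (B cell), -0.04 (erythroid) and 0.27 (progenitor). The 16 monocyte and macrophage markers averaged 9.72, 7.26 and 7.44 on ACKR2-/- arrays 1 to 3, against 8.97, 10.51 and 9.77 on the wild type arrays, and all 16 were below 0. The 10 dendritic cell and MHC class II markers averaged 9.05, 7.10 and 7.16, against 9.14, 9.44 and 9.14, with all 10 below 0. In both lists, as for Fos, ACKR2-/- arrays 2 and 3 were the lowest of the 6. The 16 neutrophil markers averaged 7.78, 6.89 and 6.73 on the ACKR2-/- arrays, against 8.97, 9.80 and 8.19 on the wild type arrays, with all 16 below 0. The 6 basophil markers averaged 11.89, 10.37 and 10.43, against 12.13, 12.28 and 12.12, with 4 below 0 and a median of -0.24. The protease gene Mcpt8 read 11.81, 7.41 and 7.02, against 12.94, 13.24 and 12.51. Mcpt8 differed by -4.15 ± 1.14 and the protease gene Prss34 by -3.68 ± 0.93, while the other genes of this list lay between -0.29 and 0.37. The 14 mast cell markers averaged 12.45, 11.83 and 11.79 on the ACKR2-/- arrays, against 12.12, 11.97 and 12.20 on the wild type arrays. Of these, 8 were above 0 and 6 below 0, and 6 were higher on all ACKR2-/- arrays, against 8.61% of all genes. Ms4a2 differed by 0.37 ± 0.11 and Mitf by 0.35 ± 0.12. Kit, the stem cell factor receptor gene, read at least 13.61 on all 6. Not all mast cell markers were level, since Hdc, the histamine-forming enzyme gene, read 11.78, 10.30 and 9.23 on the ACKR2-/- arrays, against 12.07, 11.86 and 11.73 on the wild type arrays. Without ACKR2-/- array 1, limma called 3 of the 14 lower, Hdc and the tryptase genes Tpsb2 and Tpsab1, against 2.04% of all genes. The same fit called lower 6 of 16 monocyte and macrophage markers and 5 of 10 dendritic cell and MHC class II markers. It also called lower 4 of 16 neutrophil and 2 of 6 basophil markers. Wild type array 1 had the lowest monocyte and macrophage average of its group and the highest average of the members. The part of these cell types in the lower immediate early signals was not tested, and in bulk RNA fewer cells of a type cannot be told apart from less RNA per cell.

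**Figure D4:**
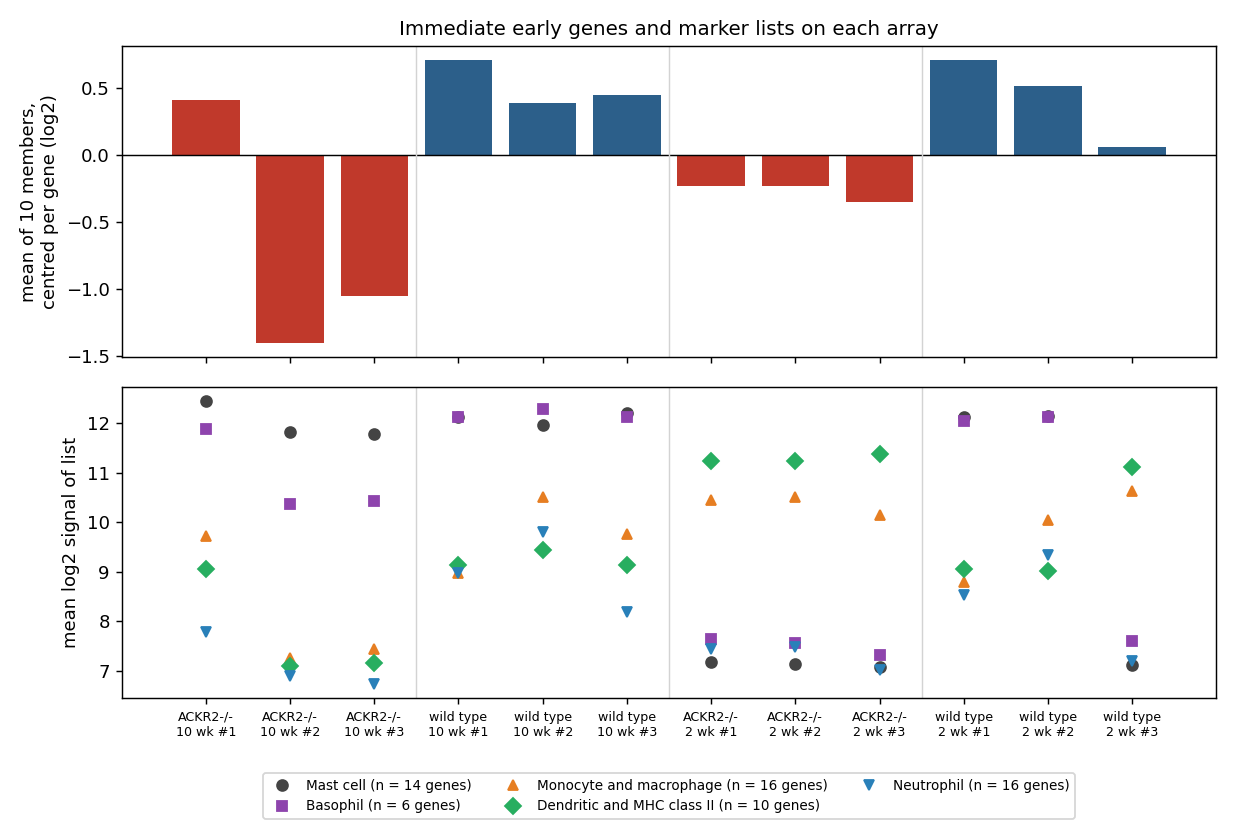
Upper panel, the mean of the 10 members on each array after centring each gene on its mean over the 12 arrays (log2), and lower panel, mean log2 signal of 5 marker lists on the same arrays. ACKR2-/- 10-week arrays 2 and 3 stand at -1.40 and -1.05 in the upper panel, and their mast cell average is close to that of the wild type 10-week arrays.

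At 2 weeks, Dusp2 was higher and Ier3 lower on the 4 arrays that lacked mast cell transcripts, whichever genotype the label gave. Dusp2 read 11.01, 10.96 and 11.44 on the ACKR2-/- arrays, against 8.23, 8.32 and 11.23 on the wild type arrays. Ier3 read 8.90, 8.85 and 7.12 on the ACKR2-/- arrays, against 12.52, 12.93 and 9.04 on the wild type arrays. For both genes wild type array 3 stood near the ACKR2-/- arrays and apart from its own group. Markers of several other cell types were also higher on these 4 arrays. The 11 T and NK cell markers averaged 11.42, 11.43 and 8.77 on the ACKR2-/- arrays, against 7.27, 7.06 and 11.51 on the wild type arrays. The B cell markers averaged 9.65, 9.59 and 11.70, against 7.03, 7.11 and 9.37. The dendritic cell and MHC class II markers averaged 11.23, 11.23 and 11.37, against 9.05, 9.02 and 11.12. The part of any of these cell types in the result was not tested. Limma gave 1.88 ± 0.69 for Dusp2 (adjusted p 0.227) and -3.21 ± 0.86 for Ier3 (adjusted p 0.225).

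Fos read 10.24, 10.21 and 11.23 on the ACKR2-/- arrays, against 11.67, 11.80 and 10.91 on the wild type arrays, so it too was lower on these 4 arrays than on wild type arrays 1 and 2. Fosb read 10.44, 10.46 and 11.84 on the ACKR2-/- arrays, against 11.88, 11.83 and 10.82 on the wild type arrays, with ACKR2-/- array 3 level with wild type arrays 1 and 2. No 2-week array had Fos or Fosb as low as ACKR2-/- 10-week arrays 2 and 3. Egr1 read 10.13, 10.05 and 9.91 on the ACKR2-/- arrays, against 11.66, 11.78 and 10.30 on the wild type arrays. All ACKR2-/- arrays were lower than all wild type arrays for Nr4a1, Nr4a2, Egr1, Egr2, Junb and Ier3, which is 6 of 10 members, against 8.60% of all genes. Limma called 0 of 10 members and 0.00% of all genes, and 3480 genes (17.5%) had an unadjusted p under 0.05. Without wild type array 3, limma called 3 members lower, Nr4a2, Egr1 and Ier3, against 13.5% of all genes, and Dusp2 higher, against 10.2%. That fit sets wild type arrays with mast cell transcripts and Xist against ACKR2-/- arrays that lack them and have Kdm5d signal. Genotype therefore cannot be told apart in it from cell composition or from the sex of the cells.

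Between 10 and 2 weeks in the cells labelled ACKR2-/-, Dusp2 and Nr4a1 fell and Ier3 rose. Dusp2 averaged 7.86 ± 0.76 at 10 weeks and 11.14 ± 0.26 at 2 weeks (SD, n = 3 each), which differ by -3.28 ± 0.69 at a limma adjusted p of 0.0144. Nr4a1 averaged 8.78 ± 1.06 at 10 weeks and 10.40 ± 0.06 at 2 weeks, which differ by -1.62 ± 0.49 at a limma adjusted p of 0.0476. Ier3 averaged 12.85 ± 0.16 at 10 weeks and 8.29 ± 1.02 at 2 weeks, which differ by 4.56 ± 0.86 at a limma adjusted p of 0.0137. These are 2 members lower, against 6.33% of all genes, and 1 higher, against 10.5%. The call of Nr4a1 was lost after median centring of the arrays (limma adjusted p 0.06), with only these 2 groups in the fit, and in 8 of 12 fits that left out 1 array. Without ACKR2-/- 10-week array 2 or 3, limma called 0 genes in this comparison, and without array 1 it called 6 members lower (Nr4a1, Egr2, Fos, Fosb, Junb and Dusp2), against 4.64% of all genes, and Ier3 higher, against 8.33%. Because these 2-week arrays lack mast cell transcripts and Xist and have Kdm5d signal, time cannot be told apart from what else separates the arrays.

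In the wild type, members differed little between 10 and 2 weeks once the array without mast cell transcripts was set aside. Limma called 0 of 10 members and 0.00% of all genes, with 1326 genes (6.65%) at an unadjusted p under 0.05. Ier3 differed by 1.64 ± 0.86 with all arrays and by 0.41 ± 0.44 without wild type 2-week array 3, and Dusp2 by -0.82 ± 0.69 and 0.16 ± 0.36. Without that array the differences of the 10 members lay between -0.70 for Egr2 and 0.46 for Junb, and Fos differed by 0.11 with a 95% confidence interval from -2.09 to 2.31. The test of whether the genotype difference changed between 10 and 2 weeks called 0 of 10 members and 0.00% of all genes, with 2271 genes (11.4%) at an unadjusted p under 0.05. Its lowest p among the members belonged to Dusp2, at -2.45 ± 0.97 (limma adjusted p 0.424). Without wild type 2-week array 3 it called Dusp2 lower, against 5.96% of all genes, and Ier3 higher, against 9.78%. This test rests on the ACKR2-/- 2-week arrays, which lack mast cell transcripts and Xist and have Kdm5d signal. A change of the genotype difference with time therefore cannot be told apart in it from cell composition or from the sex of the cells.

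Outside the class, the genes most like the mean of the 10 members over the 12 arrays were Lrrc2 (Pearson r = 0.964), Fndc3b (0.949), Anxa2 (0.946), Abhd17c (0.942), Pdcd1lg2 (0.938) and Tfec (0.933). These correlations describe 12 arrays that share their groups, and the search ran over all genes. Anxa2, which encodes the membrane-binding protein annexin A2, read 10.51, 7.49 and 7.36 on the ACKR2-/- arrays, against 10.93, 11.58 and 10.78 on the wild type arrays at 10 weeks. Tfec, a transcription factor related to MITF, read 8.17, 5.81 and 6.00, against 9.67, 9.90 and 8.66. Pdcd1lg2, which encodes the PD-1 ligand PD-L2, read 8.89, 7.10 and 7.33, against 9.06, 8.62 and 8.78. In these genes, ACKR2-/- arrays 2 and 3 were the lowest of the 10-week arrays. Because the genes were chosen for likeness to the members on the same arrays, this order comes with the choice.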

How the data were processed

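RNA of 12 samples was labelled as biotinylated cRNA from 250 ng of total RNA and measured on 1 single-colour array each, per the labels' protocols. The authors deposited log2 values of 35399 probe sets which the submitters' processing notes link to RMA and Partek 6.5. RMA subtracts background, gives arrays 1 shared distribution and summarises probes, so a shift of the whole array is removed. Values ran from 2.66 to 14.91 and array medians from 7.76 to 7.90. No detection calls or scanner files were used, so signal over background and scan batches were not examined. The genome build behind the probe sets is not given in the sources used here. The number of arrays limits the precision.

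Of the probe sets, 21789 had exactly 1 symbol in the platform annotation. For the 999 genes with several, the probe set with the highest mean was kept, which left 19938 genes. Limma 3.58.1 in R 4.3.3 was fitted to the 6 arrays of 10 weeks for the genotype comparison there (4 residual and 3.47 prior degrees of freedom), and to all 12 arrays, with 1 mean per group, for the other comparisons (8 and 2.39). P-values were adjusted with Benjamini-Hochberg over all genes, and an adjusted p under 0.05 was a call. The fits were tested on simulated data. The members, the 23 gene lists and the fits were chosen with earlier results of these data known. Named genes are the members, the 3 genes of a described list with the lowest p at 10 weeks, a few cell markers and check genes, and the 6 genes with the most similar pattern. Genes of lists named beyond that, as called without an array, were chosen after their values were seen. The labels state no pairing of arrays between groups. Between wild type 10 and 2 weeks, arrays with the same replicate number had correlations of deviations from their group means of 0.359, 0.203 and 0.166. Unlike numbers had at most 0.0232 there. In no other pair of groups did all 3 numbers stand above the unlike ones. Deviations within a group are not independent, so these values do not establish pairs. For number 3, Xist read 5.77 at 2 weeks and 13.11 at 10 weeks, and Kdm5d 10.18 and 6.04. Alternatives were the arrays in the fit, array weights, quantile normalization, median centring, the mean of all probe sets, a minimum mean of 7, a replicate block and leaving out each array.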

Additional observations from a re-analysis of the deposited data

How the results depend on the processing

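No gene was called between genotypes at 10 weeks with all 12 arrays in the fit, quantile normalization, median centring, the mean of all probe sets, a minimum mean of 7 or the replicate block. Array weights gave 9498 calls at 10 weeks, 9197 at 2 weeks, 9550 between weeks in ACKR2-/- cells and 4136 for the interaction. The estimation of these weights did not converge and put a weight of 36.7 on 1 array at 10 weeks. Under it Nr4a2 at 10 weeks turned to 0.31, Nr4a3 at 2 weeks to 0.79, and Fosb and Dusp2 between weeks in the wild type to -0.06 and 0.20. Leaving out 1 array gave 0 to 506 calls at 10 weeks, the most without ACKR2-/- array 1, and 9 without wild type array 3. It gave 0 to 4738 at 2 weeks and 0 to 3138 for the interaction, both highest without wild type 2-week array 3, 0 to 4994 between weeks in ACKR2-/- cells (1514 and 1391 without ACKR2-/- 2-week array 1 or 2), and 0 throughout in the wild type. The replicate block called 0 genes in both genotype comparisons, the wild type comparison and the interaction, and 2897 instead of 3358 between weeks in ACKR2-/- cells. A block in the wild type arrays alone, added after seeing the data, also called 0, so it changed no call of a member. Some small differences changed sign when 1 array was left out: Nr4a2 at 10 weeks (-0.27 to 0.21), Nr4a3 at 2 weeks (-0.39 to 0.53), Junb between weeks in ACKR2-/- cells (-0.88 to 0.37), Egr1 in the interaction (-0.10 to 0.75), and in the wild type Nr4a1 (-0.66 to 0.04), Nr4a2 (-0.59 to 0.04), Egr2 (-0.70 to 0), Fosb (-0.31 to 0.22) and Dusp2 (-1.34 to 0.16). Apart from the leave-outs, 322 of 350 member values kept direction and side of the threshold, and 25 of the other 28 came with array weights. Median centring moved the median of all genes between weeks in ACKR2-/- cells to 0.16, against 0.06. Beyond what is stated, the cause of these changes was not tested.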

Other observations

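A few immediate early genes outside the 10 had another array order at 10 weeks, seen only on inspection of the values. Myc, a growth-promoting transcription factor, read 10.06, 11.99 and 12.03 on the ACKR2-/- arrays, against 12.20, 11.74 and 10.02 on the wild type arrays. ACKR2-/- array 1 and wild type array 3 were thus the low ones, and the arrays with the lowest Fos had Myc near the upper end. Csrnp1 read 9.64, 9.73 and 10.02 on the ACKR2-/- arrays, against 11.88, 11.88 and 9.76 on the wild type arrays. Plk3, a polo-like kinase, read 9.36, 9.65 and 9.55, against 11.47, 10.82 and 9.42. For both genes wild type array 3 stood with the ACKR2-/- arrays. In limma with all 6 arrays these genes, which belong to the 23 other immediate early genes above, differed by 0.04, -1.38 and -1.05, and none passed.

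At 2 weeks, Hspa1a, an inducible heat shock gene, read 11.22, 11.30 and 8.39 on the ACKR2-/- arrays, against 8.47, 8.24 and 9.10 on the wild type arrays, so 2 arrays were about 2 log2 units above the next.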
